A study of Mus musculus with 16 samples.

Results

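The genes described here are 10 mouse cyclic nucleotide phosphodiesterases: Pde1a, Pde1b, Pde2a, Pde4a, Pde4b, Pde4d, Pde7a, Pde7b, Pde8b and Pde10a. They were taken by name, through their Ensembl identifiers in GENCODE, from the 35328 genes of an RNA-Seq count table. The rule that names them uses no measured value, although earlier results of these data were known when it was written. The study asked how chronic caffeine intake and spatial learning affect the hippocampus. RNA-Seq was performed on the dorsal hippocampus of 16 male C57Bl6/J mice, in 4 groups of 4. Home cage water mice rested in their cage and drank water. Home cage caffeine mice rested and drank caffeine at 0.3 g/L. Learning water and learning caffeine mice had the same drinks and were trained for 3 days in the Morris water maze, a spatial task that requires the hippocampus, and their tissue was taken 1 hour after the last training. No group swam without a task to learn, so learning cannot be told apart from swimming and handling. A difference with learning here means one between trained and home cage mice. Treatment began at 8 to 9 weeks of age and lasted 2 weeks. No group carried a transgene. The dorsal hippocampus was sequenced as a whole, so a fall in the number of cells of a type cannot be told apart from a fall in the RNA of each cell.

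Cyclic AMP and cyclic GMP are second messengers made by adenylyl and guanylyl cyclases. They act through protein kinases A and G, the Epac exchange factors and cyclic nucleotide-gated channels. Phosphodiesterases hydrolyze both messengers and thereby set how long and how far the signal spreads. In hippocampal neurons cyclic AMP signaling takes part in long-term synaptic plasticity and memory formation. Caffeine is a methylxanthine that blocks adenosine receptors at the levels reached by drinking and inhibits phosphodiesterases at high dose.

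The 10 genes differ in substrate and control. The products of Pde1a and Pde1b are switched on by calcium and calmodulin and cleave both messengers. Pde2a encodes an enzyme that cleaves both messengers and is stimulated by cyclic GMP. Pde10a also encodes an enzyme for both messengers and is best known from striatal medium spiny neurons. Pde4a, Pde4b and Pde4d encode the cyclic AMP-specific enzymes inhibited by rolipram. Pde7a, Pde7b and Pde8b encode cyclic AMP-specific enzymes that rolipram does not inhibit.

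Library totals ran from 23078094 to 49949281 counts. All 12 dorsal hippocampal neuron markers were counted in every library, and their summed level was 1234 to 1679 CPM (counts per 1000000 counts of the normalized library total) over the 16 mice. Markers of neighboring tissues were also present. All 10 choroid plexus markers were detected in every library, and their sum was 313 to 2389 CPM in home cage water mice, 196 to 510 CPM in home cage caffeine mice, 167 to 442 CPM in learning water mice and 119 to 209 CPM in learning caffeine mice. All 10 striatal markers were detected in every library, with a sum of 126 to 146 CPM in the 8 home cage mice and 109 to 126 CPM in the 8 learning mice. That sum came mainly from Ppp1r1b and Penk, which averaged 55.3 and 34.6 CPM, while no other striatal marker averaged above 11.2 CPM. Whether it reflects striatal tissue was not tested. The oligodendrocyte sum reached 12769 CPM in learning water replicate 24, against at most 9544 CPM elsewhere. The mitochondrial share of counts was 4.49% in home cage caffeine replicate 17 and 3.23% to 3.89% in the other 15 mice. None of the markers was at 0 in any library.

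Genes activated through cyclic AMP often carry the cyclic AMP response element TGACGTCA in their promoter, and 300-base RefSeq promoter windows (GRCm38.p6, from 250 bases before to 50 bases after a transcription start) were searched for it on both strands. The element was found in 1.79% of 32851 windows and in 0 of the 28 windows of the members; 9 of the 10 members had a window and Pde7a had none. The shorter motif TGACGT, which is part of the full element, was found in 7.51% of all windows and in 2 of the 28 member windows, 1 of Pde4b and 1 of Pde4a. These windows are shown because they are the member promoters that hold the motif, which is in capitals and reads ACGTCA on the printed strand. The Pde4b window is chr4:102421305-102421604 on the plus strand, with the match 35 bases upstream of the start. The Pde4a window is chr9:21183851-21184150 on the plus strand, with the match 51 bases upstream. A match describes the letters of the window and does not show that a factor binds there.
Pde4b: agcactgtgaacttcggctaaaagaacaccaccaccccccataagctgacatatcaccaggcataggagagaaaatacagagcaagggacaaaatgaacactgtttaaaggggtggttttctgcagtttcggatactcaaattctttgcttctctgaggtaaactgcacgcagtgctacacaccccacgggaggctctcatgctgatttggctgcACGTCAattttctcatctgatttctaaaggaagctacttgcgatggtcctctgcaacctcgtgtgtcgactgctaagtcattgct
Pde4a: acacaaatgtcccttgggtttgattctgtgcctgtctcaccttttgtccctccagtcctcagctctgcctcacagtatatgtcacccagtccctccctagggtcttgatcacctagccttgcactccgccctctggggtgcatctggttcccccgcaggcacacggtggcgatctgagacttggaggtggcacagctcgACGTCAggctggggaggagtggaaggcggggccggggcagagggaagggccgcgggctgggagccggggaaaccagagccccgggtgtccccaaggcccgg

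All 10 genes were expressed in every mouse, at levels that spanned a wide range. Levels of different genes were compared as CPM per kilobase of exon, averaged over the 16 mice with the SD. Pde1a was highest at 30.3 ± 2.68 CPM per kb (SD, n = 16), followed by Pde1b at 26.3 ± 3.36 CPM per kb (SD, n = 16). Pde4a lay at 13.0 ± 1.03 and Pde8b at 12.8 ± 0.818 CPM per kb. The calcium-dependent Pde1 genes thus had the highest per-length levels of the 10, and the rolipram-sensitive Pde4a came next, nearly level with Pde8b. Pde10a followed at 7.20 ± 0.729, Pde4b at 7.08 ± 0.699 and Pde7a at 4.95 ± 0.639 CPM per kb. Pde4d and Pde7b were nearly equal at 1.57 ± 0.191 and 1.57 ± 0.321 CPM per kb. Pde2a was lowest at 0.295 ± 0.0467 CPM per kb.

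The order had 4 steps at which the per-kilobase ranges over the 16 mice did not overlap: from Pde1b down to Pde4a, from Pde8b to Pde10a, from Pde7a to Pde4d and from Pde7b to Pde2a. The other neighbors in the order overlapped. Pde1a exceeded Pde1b in 11 of 16 mice, Pde4a exceeded Pde8b in 9, Pde10a exceeded Pde4b in 9, Pde4b exceeded Pde7a in 15 and Pde4d exceeded Pde7b in 9. When the length of the longest coding transcript replaced that of all exons, Pde1b at 43.6 CPM per kb came before Pde1a at 42.7, Pde4b at 17.4 came before Pde10a at 11.9, and Pde7b at 4.73 came before Pde4d at 4.49, so these 3 neighboring pairs have no order that holds for both lengths.

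**Figure D1:**
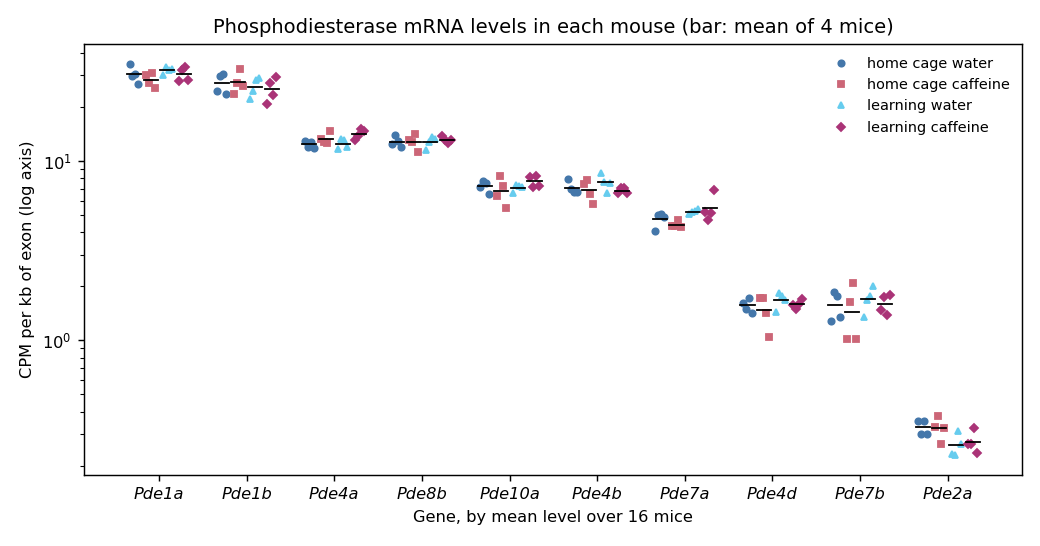
Level of each phosphodiesterase mRNA in CPM per kilobase of exon (vertical log axis) for each of the 16 mice, by gene (horizontal axis) and group (color and symbol), with a bar at the mean of each group of 4. The genes span from 0.295 CPM per kb for Pde2a to 30.3 CPM per kb for Pde1a, and for every gene the ranges of some groups overlap.

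The level of Pde2a is probably a lower limit, because its exons overlap those of another gene. The gene (ENSMUSG00000110195, chr7:101421691-101512827, mm10, plus strand) shares 3955 of its 6149 exon bases, or 64.3%, with the same-strand gene Gm45837 (ENSMUSG00000030653, chr7:101410886-101512819). The counting mode used by the authors leaves out reads that lie in 2 genes. These exons are those of GENCODE M21, whereas the authors counted with an earlier Ensembl release of the same genome build, which lists both genes but whose exons were not examined here. Gm45837 itself had 0 to 4 counts per mouse and 12 in all, with 0 in 10 mice. Over the 2194 exon bases that belong to Pde2a alone the level was 0.828 ± 0.131 CPM per kb (SD, n = 16), beside 1.57 for Pde7b over its own exons. The longest coding transcript of Pde2a has 4218 bases, and how many of them are shared was not examined. The value therefore does not settle the rank of Pde2a among the 10 members. The other 9 members shared at most 2 of their 50-base sequences with another gene on the same strand. Pde8b also shares 447 exon bases (7.6%) with Gm48420 on the opposite strand. Whether reads there were left out depends on the strand setting of the counting, which was not given in the sources used.

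Of the 10 genes, 1 differed with learning. Pde7a mRNA was higher after learning than in the home cage among caffeine-drinking mice, by 1.23-fold (95% confidence interval 1.08 to 1.42, n = 4 and 4). Pde7a (ENSMUSG00000069094) lies at chr3:19223108-19311322 on the minus strand in mm10. Its normalized count was 33.5, 33.7, 36.2 and 33.3 CPM in home cage caffeine replicates 2, 9, 14 and 17. In learning caffeine replicates 22, 27, 30 and 40 it was 40.3, 36.1, 39.5 and 53.0 CPM. The learning caffeine mouse was the higher in 15 of the 16 pairs of mice, and the ranges touched because learning caffeine replicate 27 lay just under home cage caffeine replicate 14. The log2 fold change was 0.30 (SE 0.094), with an adjusted p of 0.0948 in edgeR's quasi-likelihood test over all 17830 genes tested. An adjusted p under 0.1 counted as a call, and 5.28% of all genes tested were called in this comparison, against 1 of the 10 members.

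The call was close to its threshold and was lost in 11 of the 16 fits that left out 1 mouse. Without learning caffeine replicate 40, which had the highest Pde7a value of all 16 mice, the log2 fold change was 0.19 and the adjusted p in edgeR's quasi-likelihood test was 0.224. The adjusted p rose to 0.163 when only the 8 libraries compared were fitted, and to 0.142 (log2 fold change 0.23) after correction for transcript length and GC content. Over the 22 alternatives it ran from 0.0388 to 0.224.

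In water-drinking mice Pde7a was 31.5, 38.8, 38.9 and 37.7 CPM in home cage replicates 6, 8, 11 and 20. Learning water replicates 24, 33, 36 and 38 had 38.9, 40.3, 40.7 and 41.5 CPM. The learning mouse was again the higher in 15 of 16 pairs, with the lowest learning mouse just under the highest home cage mouse, and the log2 fold change of 0.13 (SE 0.094) did not pass the test (adjusted p = 0.601, edgeR's quasi-likelihood test). The learning responses under the 2 drinks differed by 0.17 on the log2 scale (95% confidence interval -0.11 to 0.45), which also did not pass (adjusted p = 1, edgeR's quasi-likelihood test). That difference was 0.050 without learning caffeine replicate 40 and 0.24 without learning caffeine replicate 27. Averaged over both treatments, Pde7a was 1.16-fold higher after learning (log2 fold change 0.22, SE 0.066, adjusted p = 0.0515, edgeR's quasi-likelihood test). For that average 14.5% of all genes tested were called, against 1 of 10 members, and the call held in all 16 fits that left out 1 mouse, with adjusted p from 0.0224 to 0.0846. After correction for transcript length and GC content the average was 0.16 on the log2 scale with an adjusted p of 0.108 in edgeR's quasi-likelihood test.

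Across mice, after the mean of each group was subtracted, Pde7a went with the striatal marker sum at r = -0.66 and with the dentate gyrus genes of the hippocampal list at r = 0.61 (Spearman's rho -0.56 and 0.69, n = 16). Against the CA field genes of that list r was -0.52, and against the whole list 0.47 (rho -0.48 and 0.62). The list was split into these parts after the values had been seen. The summed level of the 8 microglial markers was 471 to 510 CPM in home cage caffeine mice and 412 to 474 CPM in learning caffeine mice, and that of the 10 oligodendrocyte markers was 5621 to 9544 CPM and 5350 to 7511 CPM. Against these sums r was -0.56 and -0.34 for Pde7a (rho -0.35 and -0.51). The part of any of these markers in the difference with learning was not tested.

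**Figure D2:**
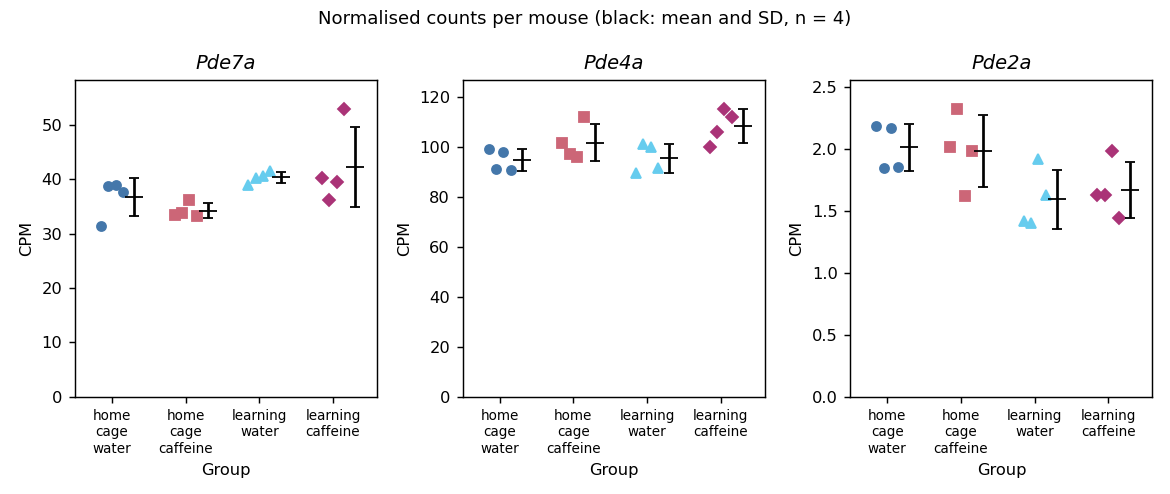
Normalized counts (CPM, vertical axis from 0) of Pde7a, Pde4a and Pde2a in each mouse of the 4 groups, with the mean and SD of 4 mice in black. Pde7a of learning caffeine replicate 40 stands at 53.0 CPM above all others, Pde4a has its highest group mean in learning caffeine mice, at 99.7 to 115 CPM, and Pde2a is lower in learning than in home cage mice on average, and for both genes the groups overlap.

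Pde2a had the lowest fold changes of the 10 members with learning, none of which passed the test. It was at 2.18, 1.85, 2.17 and 1.85 CPM in home cage water replicates 6, 8, 11 and 20, and at 2.01, 2.33, 1.62 and 1.98 CPM in home cage caffeine replicates 2, 9, 14 and 17. Learning water replicates 24, 33, 36 and 38 had 1.42, 1.40, 1.92 and 1.63 CPM. Learning caffeine replicates 22, 27, 30 and 40 had 1.63, 1.63, 1.99 and 1.45 CPM. Learning groups were lower on average and overlapped their home cage groups under both drinks. The log2 fold change was -0.33 (SE 0.16) under water and -0.23 (SE 0.15) under caffeine, with adjusted p of 0.420 and 0.429 in edgeR's quasi-likelihood test. The average over both was -0.28 (95% confidence interval -0.52 to -0.052) with an adjusted p of 0.117, and it fell under 0.1 when home cage caffeine replicate 14, learning water replicate 36 or learning caffeine replicate 30 was left out (0.0745, 0.0883 and 0.0973). Over its 21 alternatives the adjusted p ran from 0.0745 to 0.284. The counts behind these values were 50 to 99 per mouse, the fewest of any member. They probably leave out reads that lie in the exons shared with Gm45837. Within groups, Pde2a went with the striatal marker sum, which was also lower in learning mice. There r was 0.62 (Spearman's rho 0.60, n = 16), or 0.42 without the 2 farthest mice. With the CA field genes of the hippocampal list r was 0.53 (rho 0.52), or 0.38 without the 2 farthest mice. Their sum had a median of 441 CPM in home cage water and 462 CPM in home cage caffeine mice. It was 373 CPM in learning water and 404 CPM in learning caffeine mice, with overlapping ranges. Against the dentate gyrus genes r was -0.13. The list was split into these parts after the values had been seen. The part of either sum in the difference was not tested.

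The other members moved little with learning. Under water, 0 of the 10 members were called, where 0.970% of all genes tested were, and 1 member (Pde2a) had an unadjusted p under 0.05, as did 11.8% of all genes tested (2096). DESeq2 also called 0 members. Beside Pde7a, Pde4a and Pde2a, the remaining 7 members ran from -0.064 for Pde1b to 0.11 for Pde7b on the log2 scale under water. Under caffeine they ran from -0.13 for Pde1b to 0.17 for Pde10a. The median over all 10 members was 0.045 under water and 0.094 under caffeine, beside -0.0055 and -0.012 over all genes tested, and the second of these medians was 0.0041 without home cage caffeine replicate 17. Under caffeine the 95% confidence intervals of all 10 members excluded a 1.5-fold change, and under water all but that of Pde2a did.

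Caffeine changed no member past the threshold. In the home cage and after learning, 0 of the 10 members were called by edgeR's quasi-likelihood test, where 0% of all genes tested were called in either comparison. At an unadjusted p under 0.05 there were 0 members in the home cage beside 3.57% of all genes tested (636), and 1 member after learning, Pde4a, beside 3.93% (700). DESeq2 called 0 members in both. The intervals of all 10 members, each taken by itself, excluded a 1.5-fold change in both comparisons. That of Pde7b in the home cage came close, with a lower end of 0.683-fold. Its log2 fold change there was -0.37 without home cage caffeine replicate 14.

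Pde4a (ENSMUSG00000032177, chr9:21165714-21213248, plus strand) had the highest fold change with caffeine in both conditions. Water-drinking mice had 99, 91.0, 97.8 and 90.6 CPM in home cage replicates 6, 8, 11 and 20, and caffeine-drinking mice 101, 97.1, 95.6 and 112 CPM in home cage replicates 2, 9, 14 and 17. After learning, the water replicates 24, 33, 36 and 38 had 89.4, 101, 99.7 and 91.3 CPM. The caffeine replicates 22, 27, 30 and 40 had 99.7, 106, 115 and 112 CPM. The caffeine mouse was the higher in 12 of 16 pairs in the home cage and in 14 of 16 after learning, and the groups overlapped in both. The log2 fold change was 0.10 (SE 0.063) in the home cage and 0.18 (SE 0.062) after learning, with adjusted p of 0.997 and 0.999 in edgeR's quasi-likelihood test. Without home cage caffeine replicate 17, the mouse with the highest mitochondrial share, the home cage value was 0.054. The average over both conditions was 0.14 (95% confidence interval 0.049 to 0.23), with an unadjusted p of 0.0049 and an adjusted p of 0.978 in the same test. Within groups, Pde4a went with the CA field genes of the hippocampal list at r = 0.63 and with the choroid plexus sum at r = -0.61 (Spearman's rho 0.69 and -0.67, n = 16), and the choroid plexus sum was highest in home cage water mice. Against the dentate gyrus genes of the list r was -0.28, and against the whole list -0.22 (rho -0.26 and -0.17). The list was split into these parts after the values had been seen. The part of any of these markers in the difference was not tested.

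Pde7a showed no difference with caffeine that passed the test, at -0.10 (SE 0.095) in the home cage and 0.066 (SE 0.093) after learning on the log2 scale. Pde2a was at -0.025 (SE 0.16) and 0.076 (SE 0.16). The remaining 7 members ran from -0.13 for Pde7b to 0.017 for Pde1b in the home cage, and from -0.16 for Pde4b to 0.12 for Pde10a after learning. In the home cage 8 of the 10 log2 fold changes were negative and the median was -0.061, beside -0.0031 over all genes. After learning 5 were negative and the median was -0.0034, beside -0.0043 over all genes. These caffeine comparisons share their 4 groups with the learning comparisons, so the values of both are not independent of each other.

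**Figure D3:**
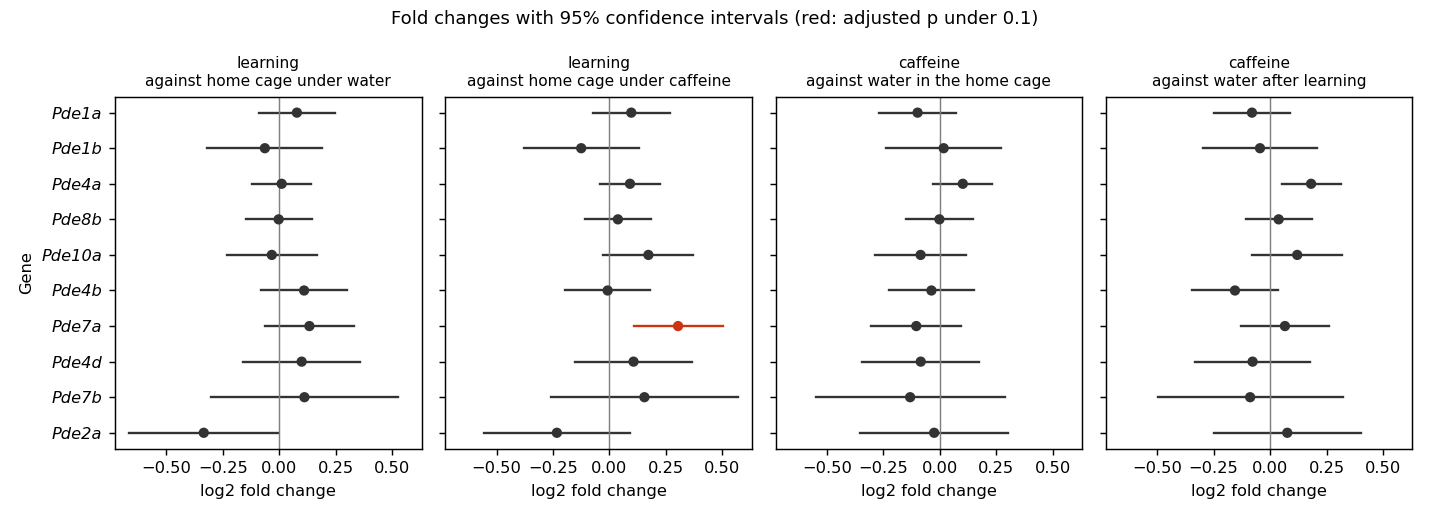
Log2 fold changes (horizontal axis, points) with 95% confidence intervals (lines) of the 10 members (vertical axis) in the 4 comparisons, with red for an adjusted p under 0.1. The single red point is Pde7a at 0.30 for learning against home cage under caffeine. Pde7b has the widest intervals, and Pde4a the narrowest.

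Whether caffeine altered the response to learning was read from the learning response under caffeine minus that under water. None of the 10 members was called, where 0% of all genes tested were, and no member had an unadjusted p under 0.05, beside 3.63% of all genes tested (648); DESeq2 called 0 members. The difference was highest for Pde10a, at 0.21 on the log2 scale, and lowest for Pde4b, at -0.12. The intervals of all members but Pde7b excluded a 1.5-fold difference.

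Pde4b, Pde4d and Pde8b, which encode cyclic AMP-specific enzymes, overlapped between all groups compared. Pde4b was at 70.5 to 83.4 CPM in home cage water mice, 60.3 to 82.4 in home cage caffeine mice, 70.2 to 90.7 in learning water mice and 69.4 to 74.5 in learning caffeine mice. Pde4d, whose gene spans 1504 kb of chromosome 13, was at 17.1 to 20.5, 12.6 to 20.7, 17.2 to 21.9 and 17.8 to 20.3 CPM in the same order. Pde8b was the steadiest of these, at 70.0 to 82.2, 66.1 to 82.6, 67.4 to 79.9 and 73.6 to 80.7 CPM. Pde1a, which encodes a calcium-dependent enzyme, was at 161 to 209, 152 to 185, 181 to 201 and 167 to 200 CPM, again with overlap between the groups compared. The lowest Pde4b, Pde4d, Pde8b and Pde1a values of all 16 mice were those of home cage caffeine replicate 17, the mouse with the highest mitochondrial share. In that mouse 8 of the 10 members lay under their group mean, by 0.17 on the log2 scale on average over the 10, while its Pde4a was the highest of its group.

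Members differed in how much mice of the same group varied. The within-group coefficient of variation of CPM was 21.8% for Pde7b, 13.7% for Pde1b, 13.2% for Pde2a and 12.6% for Pde4d. It was 10.9% for Pde7a, 10.2% for Pde10a, 9.81% for Pde4b and 8.55% for Pde1a, and lowest for Pde8b at 7.0% and Pde4a at 6.20%. The most variable gene of the set, Pde7b (ENSMUSG00000019990, chr10:20398004-20725078, minus strand), is a cyclic AMP-specific enzyme with 402 to 1006 counts per mouse, far above the counts of Pde2a.

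Pde7b was 16, 23.1, 22.1 and 16.8 CPM in home cage water replicates 6, 8, 11 and 20, and 12.6, 20.4, 25.8 and 12.7 CPM in home cage caffeine replicates 2, 9, 14 and 17. It was 16.6, 20.9, 21.9 and 24.9 CPM in learning water replicates 24, 33, 36 and 38. Learning caffeine replicates 22, 27, 30 and 40 had 18.3, 21.5, 17.2 and 22.2 CPM. All 4 groups overlapped, and both home cage groups held a pair of low and a pair of high mice. Pde1b was 132, 161, 164 and 127 CPM in home cage water mice, in the same order of replicates, and 128, 147, 175 and 141 CPM in home cage caffeine mice. It was 118, 132, 153 and 156 CPM in learning water mice and 112, 146, 125 and 159 CPM in learning caffeine mice. The groups overlapped here too.

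The deviations of Pde7b and Pde1b from their group means went together, with r = 0.83 (Spearman's rho 0.80, n = 16 mice; r = 0.80 without the 2 mice farthest from the median). Both followed 5 genes of the dentate gyrus in the hippocampal marker list, Prox1, C1ql2, Dsp, Tdo2 and Plk5, whose summed level was 258 to 449 CPM over the 16 mice. Against that sum r was 0.95 for Pde7b (rho 0.96, 0.94 without the 2 farthest mice) and 0.86 for Pde1b (rho 0.84, 0.82 without the 2 farthest mice). It was 0.71 for Pde8b and 0.56 for Pde10a, which went more closely with all 12 genes of the list (r = 0.89 and 0.74, rho 0.83 and 0.73). Against the 5 CA field genes of the same list r was -0.34 for Pde7b and -0.15 for Pde1b (rho -0.38 and -0.20), and against all 12 genes of the list it was 0.72 and 0.58 (rho 0.79 and 0.64). These 5 genes were singled out from the list after the values had been seen. The values come from the same libraries, so they share depth and the cells dissected, and they are a description.

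Pde10a was 91.2, 99.3, 97.2 and 83.9 CPM in home cage water replicates 6, 8, 11 and 20, and 81.7, 106, 92.9 and 70.2 CPM in home cage caffeine replicates 2, 9, 14 and 17. It was 85.0, 94.4, 92.5 and 91.4 CPM in learning water replicates 24, 33, 36 and 38. Learning caffeine replicates 22, 27, 30 and 40 had 105, 91.5, 105 and 93.3 CPM. All groups overlapped, and home cage caffeine replicate 17 had the lowest value of all. Against the mitochondrial share of counts, the within-group deviations of Pde10a gave r = -0.89 (rho -0.91, -0.78 without the 2 farthest mice, n = 16). Other members also went against this share, with r = -0.71 for Pde4d, -0.66 for Pde8b and -0.66 for Pde7b (rho -0.43, -0.52 and -0.63). Without the 2 farthest mice these r were -0.19, -0.60 and -0.58. For Pde4a r was 0.45, and for the rest it ran from -0.37 to -0.058. The part of the mitochondrial share in any difference of these genes was not tested.

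**Figure D4:**
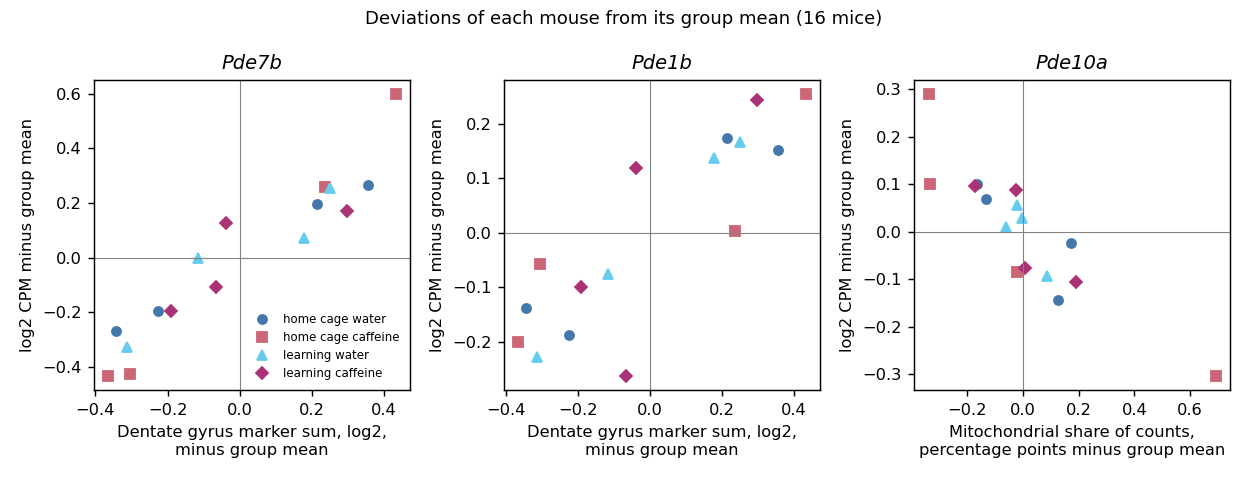
Deviation of each of the 16 mice from its group mean in log2 CPM (vertical axis) for Pde7b and Pde1b against that of the summed dentate gyrus genes (log2), and for Pde10a against that of the mitochondrial share of counts (percentage points). Pde7b and Pde1b rise with the dentate gyrus sum (r = 0.95 and 0.86), and Pde10a falls with the mitochondrial share (r = -0.89), where home cage caffeine replicate 17 is the farthest point.

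The rest of the pathway was examined in 61 genes, of which 58 had enough counts to be tested: 13 of 14 other phosphodiesterase genes, 16 of 18 cyclases and receptors with cyclase activity, 14 of 14 effectors and 15 of 15 binding partners, anchors and transporters. Only Prkar2a, a regulatory subunit of protein kinase A that binds cyclic AMP, passed the test, in the comparison of learning with home cage under caffeine and in the average over both treatments. That is 1 of 58 pathway genes in each, where 5.28% and 14.5% of all genes tested were called. It was at 57.2, 61.5, 60.0 and 50.5 CPM in home cage caffeine replicates 2, 9, 14 and 17 and at 66.9, 64.3, 70.2 and 75.0 CPM in learning caffeine replicates 22, 27, 30 and 40. Every learning mouse was above every home cage mouse, the log2 fold change was 0.27 (SE 0.064), and the adjusted p was 0.0335 in edgeR's quasi-likelihood test. Under water Prkar2a was 60.9, 63.3, 57.5 and 60.5 CPM in home cage replicates 6, 8, 11 and 20 and 63.5, 71.0, 66.6 and 68.4 CPM in learning replicates 24, 33, 36 and 38. These groups did not overlap either, but the log2 fold change of 0.15 (SE 0.064) did not pass (adjusted p = 0.350, edgeR's quasi-likelihood test). The difference of 0.12 between the responses was not called (unadjusted p = 0.209, edgeR's quasi-likelihood test). The average over both treatments was 0.21 on the log2 scale, with an adjusted p of 0.00877 in the same test.

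In the other lists edgeR's quasi-likelihood test called 0 genes in any comparison, where the share called over all genes tested was 0.970% for learning under water, 5.28% for learning under caffeine, 14.5% for the learning average and 0% for the remaining comparisons. The smallest p belonged to Pde1c, another calcium-dependent phosphodiesterase, among the other phosphodiesterases (caffeine average -0.26 on the log2 scale, unadjusted p = 0.0162, adjusted p = 0.985, edgeR's quasi-likelihood test). Among the cyclases it belonged to Adcy8, a calcium-stimulated adenylyl cyclase, for learning under caffeine (-0.43, adjusted p = 0.136, same edgeR quasi-likelihood test). Among the partners it belonged to Akap12, an anchoring protein of protein kinase A, for caffeine after learning (0.27, adjusted p = 0.999, same edgeR quasi-likelihood test). The median log2 fold change over the 58 genes was 0.022 for learning under water, 0.052 for learning under caffeine, -0.015 for caffeine in the home cage and -0.018 for caffeine after learning.

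Of the other phosphodiesterase genes, Pde6d had the highest level, at 14.5 ± 0.651 CPM per kb (SD, n = 16), although its product is a prenyl-binding protein and not an enzyme. The cyclic AMP-specific Pde8a was at 5.98 ± 1.57 and the cyclic GMP-specific Pde9a at 3.14 ± 0.445 CPM per kb. Pde3b, an enzyme inhibited by cyclic GMP, was at 1.89 ± 0.111 CPM per kb, between Pde7a and Pde4d in the order of the members, and the remaining 10 genes had means of at most 1.44 CPM per kb.

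The tested genes whose log2 CPM over the 16 libraries was most like that of Pde7a were Atxn7 (r = 0.93, rho = 0.95), Cramp1l (r = 0.90, rho = 0.89) and Rps6kb1 (r = 0.90, rho = 0.94), among the 13328 genes that averaged 1 or more on the log2 CPM scale. With group means removed, r was 0.88, 0.83 and 0.87. In the comparison of learning with home cage under caffeine, Atxn7 differed by 0.32 on the log2 scale (adjusted p = 0.0471, edgeR's quasi-likelihood test), Cramp1l 0.23 (adjusted p = 0.0991) and Rps6kb1 0.14 (adjusted p = 0.226).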

How the data were processed

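Stranded, poly(A)-selected, single-end libraries with 50-base reads were made from the dorsal hippocampus of 16 mice. The deposited values are counts of reads for each Ensembl gene, without normalization. The authors used STAR and Bowtie 2 for alignment to mm10 and retained only reads with a unique position, which HTSeq-count (0.6.1p1) assigned to genes in union mode, which leaves out reads that lie in exons of more than 1 gene; the strand setting was not given in the sources used here. The table held no normalized values, replicates were not pooled, and no per-sample column was unused. GENCODE M21 (mm10) gave symbols, positions and exon lengths for 35247 of the 35328 genes.

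Counts were tested with edgeR 4.0.16 under R 4.3.3, using TMM normalization, filterByExpr by group (17830 genes, all 10 members among them), a mean per group over all 16 libraries, the quasi-likelihood test and Benjamini-Hochberg adjustment over all genes tested, with calls at an adjusted p under 0.1. CPM are counts per 1000000 of the TMM-scaled total, and correlations used log2 CPM with a prior count of 2. Replicates are separate mice. Pairs of libraries of a group differed by more than counting noise (chi-square per degree of freedom 5.65 to 33.2 over 24 pairs). Intervals are 95% confidence intervals of the fit. Total counts had a median of 36437284.5, and the standard error of a log2 fold change over all genes had a median of 0.10 in each comparison of 4 mice with 4.

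All 10 members were named. Of the pathway lists, called genes were named, or the gene of smallest p where a list had none. For Pde7a, the 3 most similar genes were named. The rule naming the members uses no measured value, but members and lists were chosen with earlier results of these data known, so list counts are descriptions. Alternatives were DESeq2 size factors in edgeR, DESeq2 1.42.0's Wald test, fits on 8 libraries, a filter of at least 1 count, an adjusted p under 0.05, an offset for transcript length and GC content, the longest coding transcript as length, and each library left out in turn.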

Additional observations from a re-analysis of the deposited data

Results flagged for a closer look

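A pair of Pde7a values stood apart from the rest of their group of 4 mice. Home cage water replicate 6 had 31.5 CPM, where the other mice of the group had 37.7 to 38.9 CPM. Home cage caffeine replicate 14 had 36.2 CPM, where the others had 33.3 to 33.7 CPM. The gap to the nearest mouse was 0.837 and 0.847 of the range of the group, above Dixon's 95% critical value for 4 samples. The test was made in 40 groups (10 members in 4 groups of mice), and chance flags about 1 in 20 groups, or 2 in all, the number seen. Without home cage water replicate 6 the log2 fold change of Pde7a for learning under water was 0.081, and without home cage caffeine replicate 14 that for learning under caffeine was 0.34.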

How the results depend on the processing

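Fold changes of Pde7a, Pde4a, Pde2a and Prkar2a in all 7 comparisons were taken under other tools, filters, normalizations and thresholds. The lowest and highest of the remaining 7 members in each comparison, the averages aside, were taken too. These were values of Pde1b, Pde4b, Pde7b and Pde10a. Of the 38 fold changes, none was of Pde1a, Pde4d or Pde8b. Of 214 such values, 206 kept their direction and side of the threshold, 5 lost the call and 3 reversed. The threshold of 0.05 left each fold change and adjusted p as it was, so no direction could change there. Only Pde7a and Prkar2a had calls to lose, and for the rest keeping the side meant staying uncalled. All 5 losses were those of Pde7a. Of 608 values with 1 mouse left out, 574 kept both, 11 lost and 3 gained a call and 20 reversed. The members called for learning under caffeine went from 1 to 0 on the 8 libraries compared, at an adjusted p under 0.05 and with the length and GC correction, and those for the learning average from 1 to 0 at an adjusted p under 0.05 and with that correction. Leaving out 1 mouse gave 0 to 1 and 1 to 2 members. The Pde7a call under caffeine was kept without home cage water replicate 6 or 8, home cage caffeine replicate 14, learning water replicate 24 or learning caffeine replicate 27, and lost without any of the other 11 mice. DESeq2 called it, at an adjusted p of 0.0388. Pathway genes called for learning under caffeine went from 1 to 2 with DESeq2, the filter of at least 1 count and the length and GC correction, and those for the learning average to 3, 2 and 2. Leaving out 1 mouse gave 1 to 2 and 1 to 4, with 4 without learning water replicate 24. Over all genes DESeq2 called 428 for learning under water and 1569 under caffeine, where edgeR called 173 and 942, and 19 and 6 for caffeine in the home cage and after learning, where edgeR called 0.

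No value that reversed passed the test in any of these fits. With the length and GC correction the log2 fold change of Pde4a for learning under water was -0.00055, that of Pde7a for the caffeine average 0.019 and that of Prkar2a for the caffeine average 0.0011. The cause was not tested. With 1 mouse left out, values for learning under water ran from -0.014 to 0.046 for Pde4a and from -0.12 to 0.013 for Pde1b. For caffeine in the home cage they ran from -0.096 to 0.063 for Pde2a, from -0.074 to 0.081 for Pde1b and from -0.37 to 0.0086 for Pde7b. For caffeine after learning they ran from -0.019 to 0.18 for Pde2a and from -0.055 to 0.14 for Pde7a. For the caffeine average they ran from -0.021 to 0.081 for Pde2a, from -0.080 to 0.018 for Pde7a and from -0.040 to 0.0087 for Prkar2a.

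No paired analysis was possible because the groups share no replicate numbers. Low counts limit mainly Pde2a, with 50 to 99 per mouse, which probably leave out reads in the exons shared with Gm45837.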
